A study of Homo sapiens with 3 samples.

Results

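In PMA-treated THP1 cells, 712 of the 95517 SIRT1 peaks on chromosomes 1 to 22, X and Y (0.745%) shared at least 1 base with a peak of acetylated lysine 27 on histone H3 (H3K27ac), and these 712 are described here. They were chosen by position alone, so neither the height of a peak nor the gene beside it entered the choice. The peaks lay in 708 of 48735 H3K27ac peaks (1.45%). THP1 is a human monocytic leukaemia line, and PMA is a phorbol ester that activates protein kinase C and moves these cells towards a macrophage-like state. All samples were wild-type THP1 cells after 24 h of PMA. Chromatin immunoprecipitation and sequencing gave 1 library with a SIRT1 antibody and 1 with an H3K27ac antibody, and the input library, made without antibody, was left aside. Neither antibody has a second library, so nothing below has a check between replicates or a p-value. Ranges in brackets after a share or density are 95% intervals, exact binomial for shares and exact Poisson for densities, and reflect counting error alone. The SIRT1 evidence at any single place was thin, as 83.1% of the 712 peaks had a deposited −log10 q of 0, against 86.3% of the 94805 SIRT1 peaks elsewhere, while 100% of the 708 acetylated peaks had a q of at most 0.05.

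SIRT1 is a deacetylase that uses NAD to remove acetyl groups from histones and from transcription factors, among them the NF-kB subunit RELA. It has no DNA sequence of its own to bind and reaches chromatin through partner proteins. H3K27ac is laid down by the acetyltransferases CBP and its close relative at active promoters and enhancers. Overlap of peaks from separate libraries does not show that both were on the same DNA molecule.

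The peaks were set against promoters. A RefSeq table (GRCh38.p14) gave 300 bases around the start of transcription, from 250 before to 50 after it, for 35116 promoters of 27305 genes. Of the 712 peaks, 12 overlapped 14 of these promoters, belonging to 13 genes. That is 1.69% (0.874 to 2.93) of them, against 0.523% (0.478 to 0.571) of the SIRT1 peaks outside H3K27ac, 12.01% of the 708 acetylated peaks and 19.0% of the H3K27ac peaks without SIRT1. The choice by overlap with H3K27ac, which often lies at promoters, itself favours a share above that of the other SIRT1 peaks. In 4 promoters at least 290 of the 300 bases lay in the SIRT1 peak. These 4 are shown, 5′ to 3′ on the strand of the gene, to give the sequence under the SIRT1 peak at a start of transcription. Capitals mark matches to the motifs described after them. All 4 genes lie on the minus strand, SEC16A at chr9:136484691-136484990, ESRRG at chr1:217089569-217089868, TAF11L10 at chr5:17597779-17598078 and TBC1D10A at chr22:30326892-30327191.
SEC16A: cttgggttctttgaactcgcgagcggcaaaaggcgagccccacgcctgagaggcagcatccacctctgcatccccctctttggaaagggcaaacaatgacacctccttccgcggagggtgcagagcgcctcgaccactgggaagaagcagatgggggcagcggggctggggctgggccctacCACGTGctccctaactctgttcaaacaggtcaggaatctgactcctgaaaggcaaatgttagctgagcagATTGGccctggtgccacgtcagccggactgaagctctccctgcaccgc
ESRRG: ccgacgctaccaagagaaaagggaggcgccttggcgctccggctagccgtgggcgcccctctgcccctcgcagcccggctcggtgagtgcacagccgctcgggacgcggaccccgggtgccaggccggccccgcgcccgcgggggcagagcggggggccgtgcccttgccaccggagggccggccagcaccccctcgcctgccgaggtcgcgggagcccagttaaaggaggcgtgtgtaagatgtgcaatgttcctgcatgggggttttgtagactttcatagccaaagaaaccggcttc
TAF11L10: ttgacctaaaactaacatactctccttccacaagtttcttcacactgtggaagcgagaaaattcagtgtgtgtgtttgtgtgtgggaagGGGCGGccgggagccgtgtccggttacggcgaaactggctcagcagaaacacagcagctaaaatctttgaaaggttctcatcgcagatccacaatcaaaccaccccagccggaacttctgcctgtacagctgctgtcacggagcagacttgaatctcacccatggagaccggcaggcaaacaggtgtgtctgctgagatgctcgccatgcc
TBC1D10A: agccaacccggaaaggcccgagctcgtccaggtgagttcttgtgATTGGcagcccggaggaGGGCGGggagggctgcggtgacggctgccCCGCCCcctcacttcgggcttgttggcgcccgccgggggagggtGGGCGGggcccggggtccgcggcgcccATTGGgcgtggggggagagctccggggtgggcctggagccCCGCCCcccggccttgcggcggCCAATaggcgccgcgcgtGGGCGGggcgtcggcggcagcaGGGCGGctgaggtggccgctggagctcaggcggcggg

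The SIRT1 folds here were 3.34 on 6 fragments at SEC16A, 3.21 on 4 at ESRRG, an orphan nuclear receptor gene, 2.63 on 12 at TAF11L10 and 2.20 on 2 at TBC1D10A, a Rab GTPase regulator gene. At TAF11L10 the SIRT1 summit itself lay 398 bp from the start, outside the bases shown. The acetylated peaks had folds of 28.5, 4.89, 2.66 and 19.6 and covered these promoters in part only. They spanned 136483474 to 136484708, 217089630 to 217089859, 17598075 to 17598686 and 30325894 to 30326958. Most of the bases shown were thus covered at ESRRG, and only an edge of them at SEC16A, TAF11L10 and TBC1D10A. At SEC16A and TBC1D10A the acetylation lay on the transcribed side. At TAF11L10 the acetylated peak stood on a local background 7.37 times the lowest of the H3K27ac list. The 4 promoters were unlike each other in composition, with 60.7% G and C in SEC16A, 70% in ESRRG, 52.3% in TAF11L10 and 78% in TBC1D10A. On both strands, TBC1D10A held 6 GC boxes (GGGCGG) and 3 CCAAT boxes (CCAAT). SEC16A held 1 E-box (CACGTG) and 1 CCAAT box, TAF11L10 held 1 GC box, and ESRRG had no match. Among all 14 promoters, 6 held a GC box and 5 a CCAAT box, against 45% and 34.6% of the 35116. The cAMP response element TGACGTCA was found in 2, those of APTX and LOC124902140, which overlap and share the same matches, against 1.85% of all. E-boxes were found in 2 (7.26% of all), the AP-1 letters TGANTCA in 1 (7.71%), and the TATA box TATAAA (11.5%), the PU.1 letters GAGGAAGT (2.59%) and the C/EBP letters TTGCGCAA (0.151%) in 0. Matches that read alike on both strands were counted once. In APTX a GC box shares a base with a CCAAT box, and CCAAT boxes on opposite strands overlap there.

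The strongest SIRT1 peak inside acetylated chromatin lay in NOD2, which encodes the cytosolic sensor of bacterial muramyl dipeptide. It spanned chr16:50711747-50712260 with a SIRT1 fold of 5.09, the authors' ratio of signal at the summit to local background. It rested on 8 fragments and had a −log10 q of 1.38, which made it the 1 peak of the 712 that reached a q of at most 0.05. Over the whole SIRT1 list 0.142% of peaks reached that q. The acetylated peak it overlapped ran from 50711814 to 50713170 with an H3K27ac fold of 7.25, and the summits of the pair were 945 bp apart.

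Below NOD2, 4 further peaks led inside gene records. PFKP, a phosphofructokinase of glycolysis, and DGKI, a kinase for diacylglycerol, the lipid that PMA mimics, each had a SIRT1 fold of 4.41 on 5 fragments. LRRC41 followed at 4.27 on 6 fragments, and CAPZB, a subunit of the actin capping protein, at 4.24 on 5. The acetylated peaks had H3K27ac folds of 9.29, 14.2, 63.6 and 23.7, at summits 57, 125, 2045 and 891 bp from those of SIRT1. Similar SIRT1 folds were thus found in acetylated peaks whose folds differed widely. Each of the 4 SIRT1 peaks had a −log10 q of 0.614 and did not pass a q of 0.05.

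Outside genes the leading peaks had SIRT1 folds between 4.17 and 4.41. The nearest gene was HS3ST2 at 71549 bp, IRF2 at 24676 bp, RHOU at 173867 bp, S100A16 at 5800 bp and SH2D6 at 9237 bp. IRF2 encodes a factor that represses interferon genes, and the peak beside it had a fold of 4.41 over an acetylated peak of fold 5.16. The H3K27ac folds of all 5 ranged from 3.98 beside S100A16 to 6.79 beside SH2D6. S100A16, a calcium-binding protein gene, had a second SIRT1 peak of fold 2.83 at its start, over an acetylated peak of fold 10.0.

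Only 47 of the 712 summits lay at a gene end, meaning up to 1 kb from the start or stop of a protein-coding gene record. The highest was 485 bp from the start of GSTO1, a glutathione transferase gene, with a SIRT1 fold of 4.16 on 5 fragments. FAP, a serine protease gene, followed at 3.67, then the vesicle protein gene SYNGR2 at 3.61, the elongation factor gene CTR9 at 3.47 and SEC16A, which organises exit sites of the endoplasmic reticulum, at 3.34. ZNF439 had a fold of 3.23. WDR77 and ATP5PB, whose starts adjoin, for a methyltransferase cofactor and an ATP synthase subunit, shared a peak of 3.01, as did MAIP1 and TYW5. The interferon-induced ubiquitin-like gene ISG15 and the Golgi complex gene COG3 had 2.94. At ISG15 the SIRT1 summit was 338 bp from the start and 148 bp from the H3K27ac summit.

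These gene ends belonged to 54 of 20037 protein-coding genes (0.27%), whereas 10623 genes (53%) had an H3K27ac summit at an end. The nearest end was a start for 29 of the 47 peaks and a stop for 11, and for 7 the strand was not at hand. Around the 29 starts, 11 summits lay upstream and 18 downstream, at a median distance of 549 bp. Few were close to the start of the record itself, with 4 of the 29 within 250 bp and the closest, SEC16A, at 16 bp. Starts of transcription inside a record do not enter this count. The start of the ESRRG promoter shown above is such a case, 176 bp from the SIRT1 summit.

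The most strongly acetylated peaks did not hold the highest SIRT1 folds. The 10 acetylated peaks of highest fold among the 708 ranged from 80.4 at TRERF1 to 206 at ATXN2L, a gene for an RNA-binding protein, and their SIRT1 folds, from 2.09 to 4.0, lay on both sides of the median of 2.78 over all 712. Each H3K27ac fold belongs to the summit of the acetylated peak, not to the place of the SIRT1 peak. In these 10 the SIRT1 and H3K27ac summits lay from 646 bp (CORO1C) to 15024 bp (RGS16) apart. At ATXN2L the SIRT1 fold was 2.12 on 2 fragments. It was 2.09 at SIRPA, the receptor through which myeloid cells read the CD47 signal, where the H3K27ac fold was 150. Next to MACROH2A1, a histone variant gene, the folds were 2.12 for SIRT1 and 131 for H3K27ac. The peak 1295 bp from ASB1 had the highest of the 10, with a SIRT1 fold of 4.0 on 5 fragments over an H3K27ac fold of 112. RGS16, a regulator of G-protein signalling, had 3.16 over 107, and CCDC74A, the nearest gene at 137328 bp, 2.94 over 105. The peak nearest CDH17 had 2.92 over 99.01, PIK3CB 2.11 over 89.3, CORO1C 2.11 over 88.6 and TRERF1 3.02 over 80.4. At PIK3CB the SIRT1 summit lay outside the acetylated peak, 3009 bp from the H3K27ac summit.

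**Figure D1:**
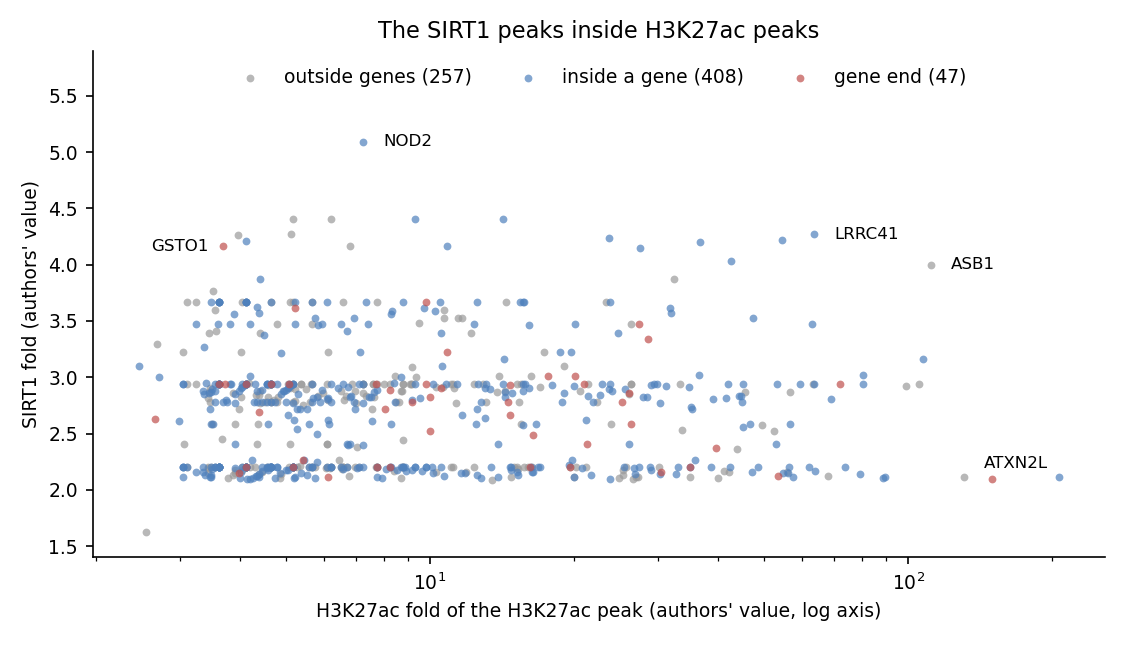
Each point is 1 of the 712 SIRT1 peaks, coloured by the position of its summit. The log axis gives the fold of the H3K27ac peak it overlaps, taken at the H3K27ac summit. The vertical axis gives its own SIRT1 fold, taken at the SIRT1 summit. The main horizontal bands are peaks with the same whole number of fragments over the lowest background. NOD2 stands at the top with a SIRT1 fold of 5.09, and ATXN2L at the far right has an H3K27ac fold of 206 and a SIRT1 fold of 2.12.

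In their share at gene ends the SIRT1 peaks inside acetylated peaks lay between the other SIRT1 peaks and acetylated peaks without SIRT1, and their share inside genes was above that of either. Of the 712, 6.60% (4.89 to 8.68) were at a gene end, 57.3% (53.6 to 61.0) elsewhere inside a gene and 36.1% (32.6 to 39.7) outside genes. Among the 94805 SIRT1 peaks outside H3K27ac these shares were 1.92% (1.83 to 2.01), 41.3% and 56.7%. Among the 48027 H3K27ac peaks without SIRT1 they were 22.1% (21.7 to 22.4), 43.4% and 34.5%. The intervals for gene ends did not overlap between any of the 3 sets. The 712 were chosen for touching H3K27ac peaks, which often lie at gene ends. A share above that of the other SIRT1 peaks is therefore partly built into the choice. By the summit of the acetylated peak instead, 13.4% (11.0 to 16.2) of the 708 lay at a gene end, so some SIRT1 summits sat beyond 1 kb from an end that their acetylated peak marked. Put the other way, 0.888% (0.719 to 1.08) of H3K27ac peaks at gene ends held a SIRT1 peak, against 1.73% (1.56 to 1.91) inside genes and 1.46% (1.29 to 1.66) outside.

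**Figure D2:**
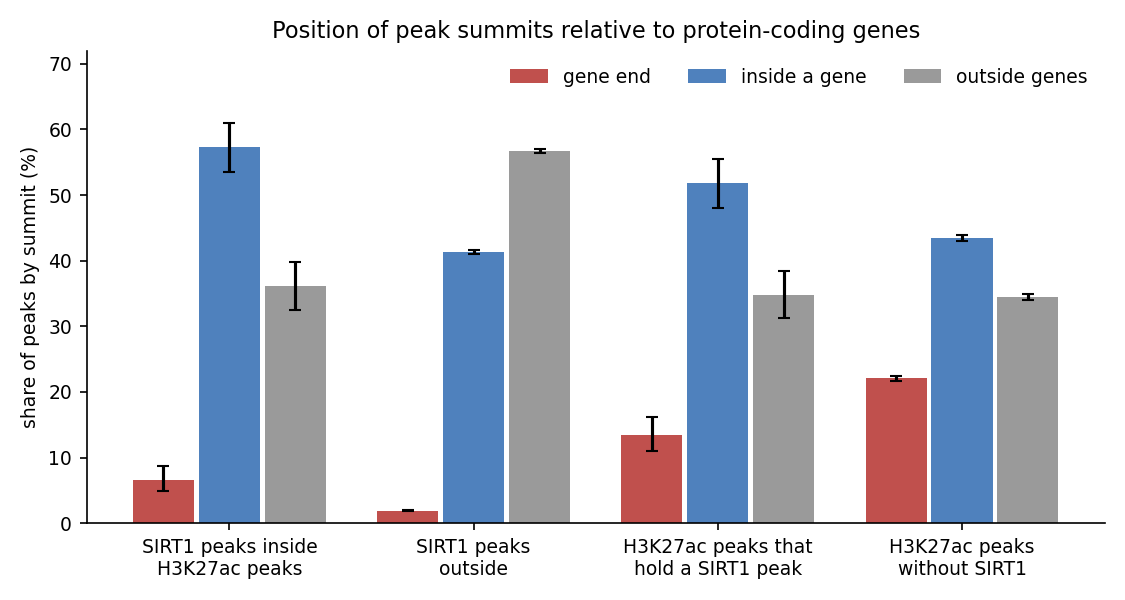
Bars give the share of peak summits, in percent, at a gene end, elsewhere inside a gene and outside genes for 4 sets of peaks, with 95% exact binomial intervals. The 712 SIRT1 peaks inside H3K27ac peaks have 57.3% inside genes, and their 6.60% at gene ends lies between the 1.92% of other SIRT1 peaks and the 22.1% of H3K27ac peaks without SIRT1.

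The acetylated peaks that held SIRT1 were wider than the others and close to them in fold. Their median width was 868 bp (quartiles 398 and 2202), against 681 bp (374 and 1457) for those without. The median H3K27ac fold was 6.60 (quartiles 4.46 and 14.8) against 6.35 (4.48 and 12.9). A wide peak shares a base with another list more readily, so fold was also compared at like width. With all H3K27ac peaks split by width into 4 classes of like number, the median fold in the narrowest, 224 to 374 bp, was 4.13 with and 4.21 without SIRT1. In the next classes it was 4.75 and 5.15, then 6.97 and 8.12, and in the widest, from 1466 bp, 19.6 and 20.6. The median fold was thus lower with SIRT1 in each of the 4 width classes, although the widest is broad and its medians of width were 2778 bp with and 2326 bp without SIRT1. Split instead into 4 classes by H3K27ac background, the fold was 5.60 with and 5.58 without SIRT1 in the lowest, then 5.60 and 5.80, 11.1 and 6.45, and in the highest 17.0 and 10.5, so the order depended on what was matched. In those last classes the peaks with SIRT1 were wider, at medians of 2000 and 722 bp and of 2282 and 1195 bp. Over all H3K27ac peaks, the background was a median of 1.16 times the lowest of its list with SIRT1 and 1.55 times without. Without a match for width the median fold was higher with SIRT1 at each position, at 21.3 against 14.6 at gene ends, 5.81 against 5.55 inside genes and 6.49 against 5.77 outside, and the peaks with SIRT1 were also wider there, with medians of 2150 and 1226 bp at gene ends, 739 and 577 bp inside genes and 774 and 591 bp outside.

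SIRT1 summits were spread along the acetylated peaks. The summit itself lay inside in 541 of 712 cases, or 76.0% (72.7 to 79.1), and 48.7% of the SIRT1 peaks lay wholly inside. Of the 541 summits, 195 fell in the first of 3 equal parts of the acetylated peak along the chromosome, 161 in the middle and 185 in the last. The intervals of these shares overlapped, at 36.0% (32.0 to 40.3), 29.8% (25.9 to 33.8) and 34.2% (30.2 to 38.4). The median distance between the summits of SIRT1 and H3K27ac was 336 bp, and 18.5% were within 100 bp of each other. Peaks on the border of the rule were much like each other. The 46 peaks that shared 50 bp or fewer had a median SIRT1 fold of 2.60, and the 44 that missed an acetylated peak by under 50 bp had 2.78.

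With H3K27ac peaks of all widths pooled, SIRT1 summits became sparser towards acetylated peaks over a long distance. They rose just inside the edge and were sparsest in the depth of wide peaks. The narrowest peaks, of 224 to 374 bp, lie wholly in the outermost 250 bp, and the deep zones exist in wide peaks alone. Depth and width therefore cannot be told apart in this profile, and width classes are given separately below. Between 50 and 100 kb from the nearest H3K27ac edge there were 33.2 SIRT1 summits per Mb (32.7 to 33.8). The density was 28.4 (27.6 to 29.2) at 5 to 10 kb, 19.1 (18.0 to 20.3) at 1 to 2 kb and 10.9 (9.63 to 12.4) in the last 250 bp before the edge. Inside, it was 14.2 (12.7 to 15.9) in the outermost 250 bp, above the last 250 bp outside with intervals that did not overlap. It then was 6.64 (5.27 to 8.25) at a depth of 500 to 1000 bp and 3.06 (1.67 to 5.14) deeper than 2 kb. The last value rests on 14 summits in 4.57 Mb. Over all H3K27ac peaks it was 9.34 per Mb (8.57 to 10.2), from 542 summits, 1 more than above because 1 summit lay in the lesser of 2 acetylated peaks that its peak touched.

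SIRT1 peaks on 4 or more fragments were likewise sparser near the edge, from 4.99 per Mb (4.77 to 5.22) at 50 to 100 kb to 1.99 (1.45 to 2.66) in the last 250 bp outside. Inside they stood at 2.66 (2.02 to 3.45) in the outermost 250 bp, with an interval that overlapped the one outside, and 0.656 (0.135 to 1.92) deeper than 2 kb. The local background of SIRT1 peaks moved with this distance. Of the SIRT1 peaks at 50 to 100 kb, 69.6% stood on the lowest background rate in the list, 0.362 fragments, counting values up to 1% above it. The share was 42.3% in the last 250 bp outside and 45.1% in the outermost 250 bp inside, where density was higher too, and then 37.5% at 250 to 500 bp, 30.9% at 500 to 1000 bp, 23.1% at 1 to 2 kb and 28.6% deeper than 2 kb. A raised local background asks for more fragments before a peak is called, and its part in the lower density was not tested.

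**Figure D3:**
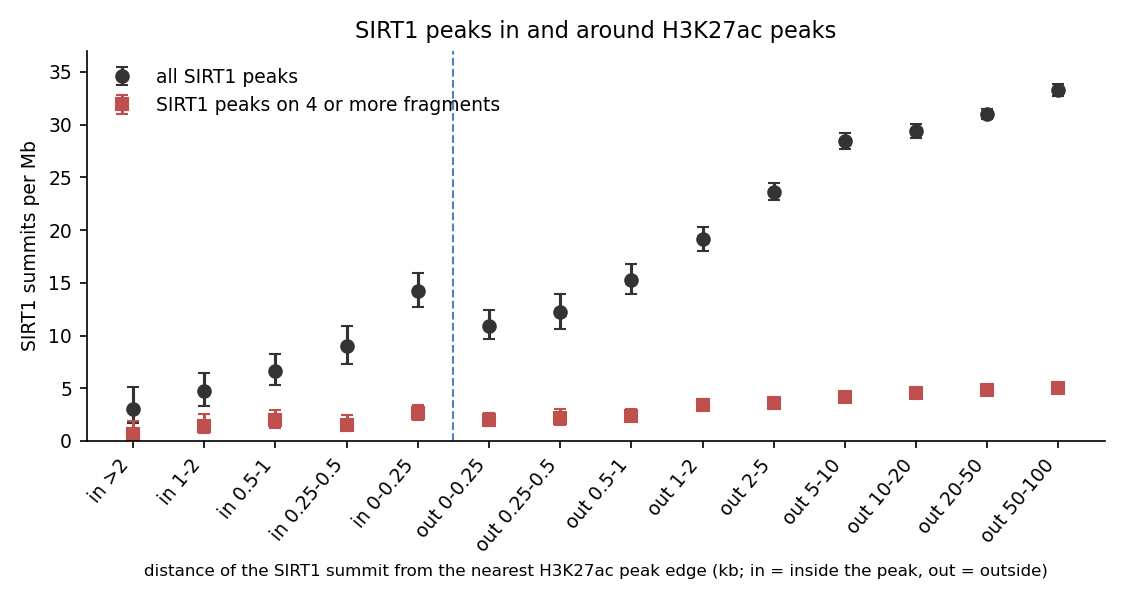
SIRT1 summits per Mb (vertical axis) by distance in kb from the nearest edge of an H3K27ac peak, with 95% exact Poisson intervals. The inside of the peak is left of the dashed line, and H3K27ac peaks of all widths are pooled. All SIRT1 peaks fall from 33.2 per Mb at 50 to 100 kb to 10.9 just outside the edge and 3.06 deeper than 2 kb inside. Those on 4 or more fragments fall from 4.99 to 1.99 and 0.656.

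Narrow and wide acetylated peaks differed in how many SIRT1 summits they held per length. The narrowest of the 4 width classes held 22.7 per Mb (18.0 to 28.3), the next 16.7 (13.7 to 20.3), the one after that 10.2 (8.54 to 12.2) and the widest 6.44 (5.64 to 7.33). In the flanks from 5 to 20 kb the 4 classes stood close together, from 27.9 to 29.5 per Mb. In the 250 bp next to the peak the narrowest class had 17.0 (13.7 to 20.7), less than inside, although the intervals overlapped. In the next class the density was 16.7 inside and 10.6 (8.11 to 13.7) in the adjoining 250 bp, where the lower bound inside, 13.7, met the upper bound beside it. For the widest class the order was turned, with 6.44 inside and 8.83 (6.55 to 11.6) beside it. By H3K27ac fold in place of width the density inside fell in the same way, from 21.8 (17.9 to 26.3) in the lowest of 4 fold classes to 5.57 (4.79 to 6.45) in the highest, which began at a fold of 12.9. The spread was larger still by the background of the H3K27ac peak, from 22.96 (20.1 to 26.1) in the lowest of 4 background classes to 3.77 (2.98 to 4.72) in the highest. Wide and strong H3K27ac peaks had the higher backgrounds, at a median of 2.08 times the lowest in the widest class without SIRT1 against 1.38 in the narrowest, and its part in the differences by width and fold was not tested.

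**Figure D4:**
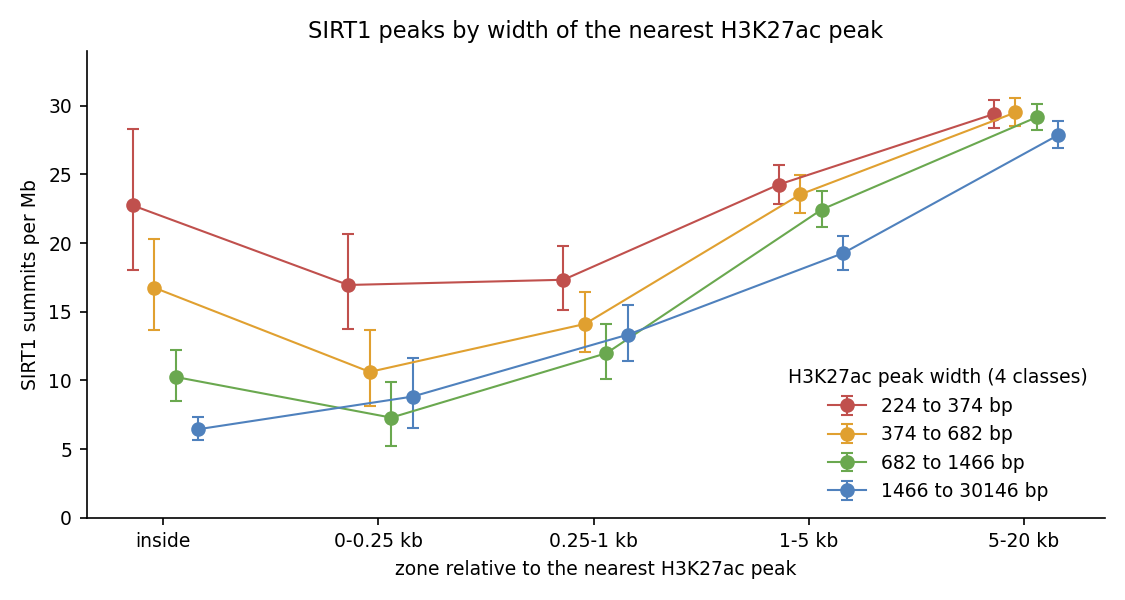
SIRT1 summits per Mb inside H3K27ac peaks and in 4 zones around them, with H3K27ac peaks split by width into 4 classes of like number and 95% exact Poisson intervals. Inside, the density falls from 22.7 per Mb in the narrowest class to 6.44 in the widest, and at 5 to 20 kb all classes lie between 27.9 and 29.5.

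Most of the 712 peaks rested on few fragments, as did the list they come from. At the summit 35.4% had 2 fragments, 43.8% had 3, 16.0% had 4, 3.09% had 5 and 1.69% had 6 or more. Outside H3K27ac, 12.4% (12.2 to 12.6) had 4, against 16.0% (13.4 to 18.9) inside. The median SIRT1 fold was 2.78 inside and outside, and the median width 299 and 301 bp. Of the 712, 40.2% (36.5 to 43.9) were on the lowest background, against 69.2% (68.9 to 69.5) outside. A background above 2 times the lowest was found at 32 of the 712. The highest was 63.4 times the lowest, in a peak of 38 fragments and a fold of 1.63 at chr21:8469499-8469787. TAF11L10, whose promoter is shown above, had 10.9 times and C1QTNF3 9.71 times, so the 12 and 13 fragments there gave folds of only 2.63 and 3.10. None of the 712 lay on chromosome 1 between 39 and 43 Mb (interval up to 0.517%), which held 0.0802% of the other SIRT1 peaks, so no difference can be read from this 0.

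The peaks were then read against lists of genes grouped by role. A gene was counted when a peak lay at its end or inside its record, which held for 439 of 20037 genes (2.19%). In 15 lists of 20 genes on macrophage identity, signalling, metabolism and housekeeping, 10 of 295 distinct genes did (3.39%), and in 6 lists of markers of other cell types, 4 of 120 (3.33%). These shares are near that of all genes and were not tested against it. H3K27ac itself was unevenly placed, at the end of 244 of 300 entries of the first kind and 18 of 120 of the second, among them 12 of 20 macrophage identity genes. Genes of macrophage identity, NF-kB and inflammation, AP-1 and early response, cholesterol and lipid, autophagy and lysosome, cytosolic ribosomal proteins, and sirtuins and NAD had 0 of 20 each with a SIRT1 peak inside acetylated chromatin. So did the erythroid, neuron and hepatocyte lists. At 2.19% of all genes such a count says little of a list of 20.

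The list of PMA and protein kinase C signalling genes had 2 of 20. PRKCD, a kinase isoform that phorbol esters activate, held 2 peaks of SIRT1 fold 2.94, 1 over an acetylated peak of fold 15.6 and 1 of 4.56. PRKCA held 1 of 2.20 over a fold of 3.05. Oxidative phosphorylation had 3 of 20, with 3.01 at the ATP5PB end, 2.83 inside ATP5F1A and 3.23 inside PPARGC1A. PPARGC1A encodes PGC-1alpha, a coactivator that SIRT1 deacetylates, and was also the 1 gene of 20 in the list of SIRT1 substrates and regulators; its acetylated peak had a fold of 18.7. Of the glycolysis genes only PFKP had such a peak, of the interferon genes ISG15, of the histone acetylation enzymes HDAC9, with 2.87 and 2.20, and of the cell cycle genes CDK6, with 2 peaks of 2.20. The circadian activator BMAL1 had 3.47 on 4 fragments. Among markers of other cell types the genes were the T cell gene CD5 at 2.94, the B cell factors PAX5 at 2.78 and EBF1 at 2.20, and the epithelial mucin gene MUC1 at 3.27.

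Long genes held more of the peaks. The 420 genes with a peak inside had a median record of 72.7 kb, against 23.6 kb for the rest. A longer record has more room for any peak, and no rate per length was compared. At least 2 were found in 44 genes, and 3 in ARHGAP26, of 459 kb, and in the phospholipase gene PLB1, of 148 kb. The ARHGAP26 peaks had SIRT1 folds of 2.82, 2.94 and 3.57, and those of PLB1 2.41, 2.20 and 2.87. In PLB1 all 3 SIRT1 summits lay outside the acetylated peaks, with 4, 81 and 196 bp shared. The following were chosen after their values were seen. IRAK2, a kinase of Toll-like receptor signalling, held 2 peaks, of 2.82 and 2.26. GNAI2, an inhibitory G-protein subunit gene, held 2, of 4.21 and 2.58, and the summit of the first lay outside its acetylated peak. POU2F2, a transcription factor gene, had 4.03 over an acetylated peak of fold 42.7. The peak of 2.58 where the ends of STAT6 and NAB2 meet lay over an acetylated peak of fold 26.4.

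Of the 708 acetylated peaks, 10 were touched by 2 SIRT1 peaks and none by more. The strongest was at TRERF1, with an H3K27ac fold of 80.4, a width of 10319 bp and summits 5556 bp apart. The next were where GIN1 and PPIP5K2 adjoin with 35.0 and at NFE2L1, a regulator of proteasome genes, with 30.2; the SIRT1 folds there were 2.20 for both peaks of the first and 2.14 and 2.77 for the second. A peak between genes on chromosome 21 followed at 26.3, and RNF216 at 20.03. Along the chromosomes, 51 of the 712 peaks (7.16%) had another of them within 10 kb and 174 (24.4%) within 100 kb.

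The peaks were spread over all chromosomes at different rates. Per Mb of H3K27ac peak there were 4.203 (13 peaks) on chromosome 6, 4.84 (7 peaks) on X and 6.78 (19 peaks) on chromosome 8, and at the other end 18.8 (25 peaks) on chromosome 22 and 19.8 (17 peaks) on chromosome 21. Chromosome 7, with 2.93 Mb of H3K27ac peak against 3.09 Mb on chromosome 6, had 43 peaks. As a share of all SIRT1 peaks the lowest was 0.262% (0.140 to 0.448) on chromosome 6 and the highest 1.70% (1.11 to 2.50) on chromosome 22. Background moved with some of these values and not with others. On chromosome 8, 51.8% of H3K27ac peaks had a background over 2 times the lowest and 30.7% of SIRT1 peaks were on the lowest rate, whereas on chromosome 6 the figures were 29.3% and 61.6%, and on X 5.56% and 97.0%. Its part in the differences between chromosomes was not tested.

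**Figure D5:**
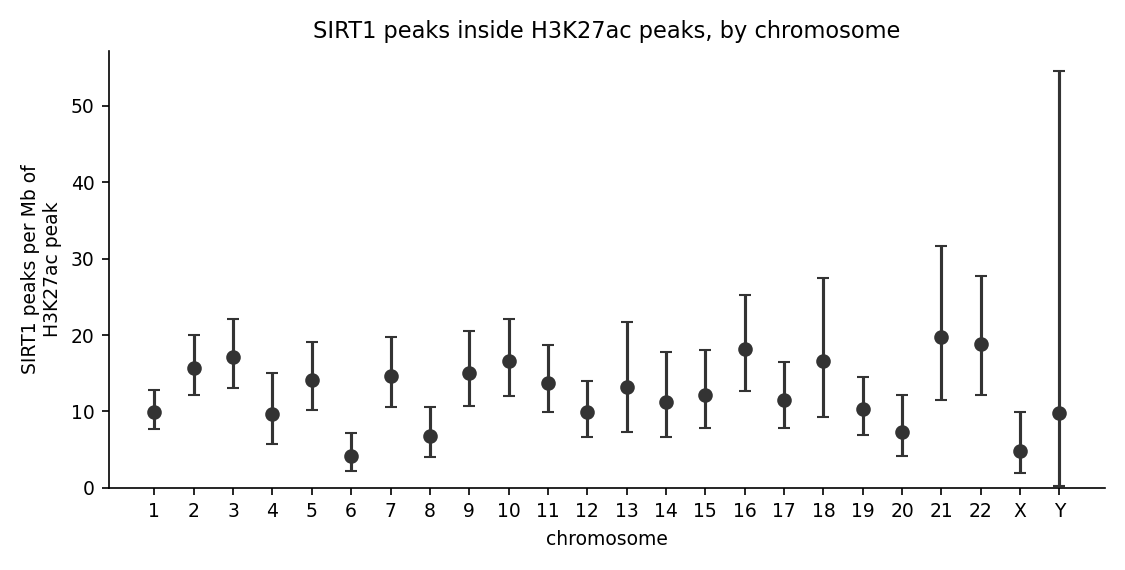
SIRT1 peaks inside H3K27ac peaks per Mb of H3K27ac peak for each chromosome, with 95% exact Poisson intervals. Chromosome 6 is lowest at 4.203 per Mb and chromosome 21 highest at 19.8, where the interval is wide because it rests on 17 peaks.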

How the data were processed

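SIRT1 and H3K27ac peaks were taken from the lists the authors deposited, 1 per library. MACS2, deepTools and build hg38 are named per the submitters' processing notes; versions, aligner and control: not given in the sources used here. The fold, a ratio to local background at the summit, and both −log10 values (of p and of q) are as the authors deposited them; the deposited score was not used. Folds were compared within their own list only. No total of reads was at hand, so depth is known only as fragments at each summit. Fragments and background were recovered from fold, taken as fragments plus 1 over background plus 1, and −log10 p, taken as a Poisson tail. This gave back −log10 p within 0.001 for 100% of SIRT1 and 99.99% of H3K27ac peaks and was tested on simulated data. The lowest background was 0.362 fragments for SIRT1 and 0.937 for H3K27ac.

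Overlap meant at least 1 base. Positions refer to summits and to 20037 protein-coding gene records (GRCh38.p14); strand was at hand for 15843 of them, and exons were not used. All 420 list entries were matched to a record. Densities divide summits by the length of each zone, which includes sequence where no read can map. The peaks described, the gene lists and the rules for naming were chosen with earlier results of these data known. Named were peaks with a q of at most 0.05, the highest SIRT1 folds by position (10 at gene ends, 5 inside and 5 outside genes), the 10 highest H3K27ac folds, acetylated peaks with most SIRT1 peaks, and up to 3 genes per list. The promoters printed, the distance profile and the flanks were chosen after seeing the data. Alternatives were the overlap, the fold of either list, the background, the chromosome 1 stretch, the gene end window and, added later, 4 or more fragments. Scripts ran on Python 3.11.15 with scipy 1.17.1, pandas 2.3.3, numpy 2.4.6 and matplotlib 3.10.9.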

Additional observations from a re-analysis of the deposited data

Results flagged for a closer look

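On contigs outside the primary chromosomes, which no comparison used, 9 of 1288 SIRT1 peaks (0.699%) lay inside one of 1533 H3K27ac peaks. This is listed because these contigs entered no comparison; the share is near the 0.745% of the primary chromosomes. Of the 9, 6 were on alternate contigs, and 0 reached a q of at most 0.05.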

How the results depend on the processing

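The number of peaks inside H3K27ac depended on each threshold. It was 18 with a SIRT1 fold of at least 4, 251 with an H3K27ac fold of at least 10, 168 on the lowest H3K27ac background and 148 on at least 4 SIRT1 fragments, the last chosen after seeing the data. These settings admit fewer peaks by construction; the cause of the other changes below was not tested.

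With at least 50% of the SIRT1 peak inside, the acetylated peaks had a median fold of 7.56 and width of 1116 bp, and 92.5% of summits lay inside. With a SIRT1 fold of at least 4 these were 10.1, 1287 bp and 88.9% (65.3 to 98.6). The median SIRT1 fold was then 4.23, 61.1% (35.7 to 82.7) lay inside genes and 1 gene had a peak at an end. These shares rest on 18 peaks, and their intervals include the 76.0% and 57.3% of all 712. With an H3K27ac fold of at least 10 the acetylated peaks had 21.3 and 2771 bp, and 87.6% (82.9 to 91.5) of summits lay inside. At a gene end were 9.96% (6.55 to 14.4) of peaks, with 31 genes, an interval that overlaps the 4.89 to 8.68 of all 712. On the lowest H3K27ac background the median fold and width were 5.16 and 487 bp, and 67.3% (59.6 to 74.3) of summits lay inside. The share inside genes was 52.4% (44.5 to 60.1), an interval that includes the 57.3% of all 712, with 13 genes at an end. On at least 4 fragments the width was 1097 bp, the SIRT1 fold 3.50 and the number of genes 13.

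A gene end window of 500 bp gave 3.09% at gene ends and 22 genes, and 2500 bp gave 17.4%, 49.0% inside genes and 144 genes. Leaving out chromosome 1 from 39 to 43 Mb changed none of these values, since it held 0 of the peaks. No paired analysis was possible because no groups of replicates were compared, each antibody having 1 library. A q of at most 0.05 left 1 peak. Depth limits single places, since 35.4% of summits had 2 fragments and 43.8% had 3.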

Other observations

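Hairpins of 5 miRNAs (MIR4425, MIR1284, MIR583, MIR6772 and MIR5787) lay within 1 kb of one of the 712 peaks without overlapping it. Hairpins near other peaks were not counted, so the 5 cannot be read as many or few. MIR4425 was nearest, 59 bp from a peak of SIRT1 fold 2.09 on 2 fragments.

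On chromosome 6, 0 of the 619 SIRT1 peaks before position 42331969 lay in the 1010 H3K27ac peaks there, and 13 of 4342 did from that position on. The share was 0.262% over the whole of chromosome 6 and 0.745% over all SIRT1 peaks. At the share of chromosome 6, which includes this stretch, a count of 0 among 619 says little. Counted by H3K27ac peaks the 0 stands out more, and it was not tested. Over all chromosomes 1.45% of H3K27ac peaks held a SIRT1 peak, against 0 of the 1010 (1.09 Mb) before that position. The border is the start of the first SIRT1 peak inside H3K27ac on this chromosome, chosen after seeing the data. The median background of H3K27ac peaks was 1.04 times the lowest before it and 1.59 times after it, and 60.3% and 61.8% of SIRT1 peaks were on the lowest rate.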
